A study of Homo sapiens with 9 samples.

Results

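The 40 genes described here carry out DNA replication and the making of its nucleotides in human cells. They were taken by gene symbol from a table of 58381 genes, and all 40 were found once and were tested. They comprise the origin licensing factors ORC1, ORC6, CDC6 and CDT1, the MCM2 to MCM7 helicase ring, the helicase activators MCM10, CDC45 and GINS1 to GINS4, and the polymerase alpha-primase genes POLA1, POLA2, PRIM1 and PRIM2. They also comprise the polymerase delta and epsilon genes POLD1, POLD3, POLE and POLE2, the sliding clamp PCNA and its loader RFC2 to RFC5, the strand factors RPA2, FEN1 and LIG1, the nucleotide enzymes RRM1, RRM2, TYMS and TK1, and the S-phase entry genes E2F1, E2F2, CCNE1 and CCNE2.

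RNA was sequenced from TC-32, an established Ewing sarcoma cell line driven by the EWSR1::FLI1 fusion, which every group carries. Control cells carried the lentiviral pLOC vector with RFP. In the other cells pLOC carried an ETS1 cDNA, expressed about as strongly as in cells that have lost the fusion (ETS1-High) or less strongly (ETS1-Low), and each group had 3 libraries. Transduced cells were selected with puromycin and sorted singly, and the ETS1 cells are single-cell clones. How many clones stand behind a group, and whether the 3 libraries of a group came from separate cultures, is not given in the sources used here, so p-values measure the spread between libraries and a difference between groups cannot be told apart from a difference between clones. The RFP libraries serve as control for both ETS1 groups, so those 2 comparisons share them.

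ETS1 itself, the introduced gene, stood at 1.81, 2.03 and 2.15 CPM, the count scaled to library size, in the RFP libraries, at 10.6, 10.9 and 10.3 CPM in ETS1-Low and at 19.4, 18.2 and 19.7 CPM in ETS1-High, in the order the labels give. Libraries held 39484704 to 46654734 counts, of which the 40 genes took 0.472% to 0.476% in RFP, 0.554% to 0.563% in ETS1-Low and 0.501% to 0.509% in ETS1-High. Mitochondrial genes took 6.02% to 6.26%, 7.10% to 7.63% and 6.64% to 7.29% of counts in the same order. All 11 Ewing sarcoma markers reached at least 1 CPM in every group, with sums of 2899 to 3026 CPM in RFP, 4533 to 4609 in ETS1-Low and 4540 to 4551 in ETS1-High. CCND1, also one of the S-phase entry regulators counted below, had the most counts, with means of 74208, 103840 and 107398 in that order. The sums thus follow CCND1 in large part, while NKX2-2 had means of 4293, 4271 and 4147 counts. The 4 blood markers summed to at most 1.62 CPM in any library and the 3 endothelial markers to at most 5.56 CPM. The 6 fibroblast markers summed to 272 to 303, 388 to 394 and 515 to 552 CPM. In the same order the mean of COL3A1 was 176, 342 and 450.3 CPM, that of PDGFRB 74.2, 20.5 and 26.0 CPM and that of COL1A1 39.3, 28.3 and 50.9 CPM. DCN had 0 to 2 counts a library in RFP and ETS1-Low and 32 to 43 in ETS1-High, LUM had 0 in the former and 13 to 19 in the latter, and COL1A2 had 0 or 1 in every library. The 4 epithelial markers summed to 78.1 to 82.5, 156 to 165 and 110 to 112 CPM, nearly all from KRT18. KRT18 had 3537 to 6729 counts a library and KRT8 103 to 279, whereas EPCAM had 0 to 9 and CDH1 0 to 4. The part of these differences in the results below was not tested.

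In each cell cycle, origins of replication are licensed in G1, when the origin recognition complex, CDC6 and CDT1 load the MCM ring onto DNA. At the start of S phase CDC45 and the GINS complex join the ring to form the active helicase, polymerase alpha-primase lays the primers, polymerases epsilon and delta extend them on the PCNA clamp, and FEN1 and LIG1 process and seal the lagging strand. Ribonucleotide reductase, thymidylate synthase and thymidine kinase supply the deoxynucleotides. Many of these genes are transcribed together at the G1 to S transition under E2F factors and fall when cells leave the cycle. In a bulk library, fewer cells in S phase and less RNA of a gene per cell cannot be told apart.

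Promoters of some of these genes hold letters that transcription factors can bind. The letters were not used to choose the genes, but many of the genes act under E2F factors, so E2F letters could be foreseen. The set of all promoters below was not limited to expressed genes. RefSeq promoter windows (GRCh38.p14, 250 bases before to 50 bases after the start) were found for 34 of the 40 genes, and not for MCM4, MCM5, GINS4, POLD3, RPA2 and CCNE2. An E2F letter set, TTTCCCGC, TTTCGCGC, TTTGCCGC or TTTGGCGC on either strand, stood in 19 of the 34 windows (55.9%) and in 3.33% of all 27305 promoter windows of that length. The letters CCAAT, the box bound by NF-Y, stood on either strand in 18 of the 34 (52.9%) and in 35.7% of all promoters. The letters CGGAAG, a core that ETS factors can bind, stood in 12 of the 34 (35.3%) and in 19.9% of all, and in no member did an E2F match overlap an ETS core match. A match is a description of the letters and not a bound site. The bases just before the start of 5 genes are shown because they share E2F letters, in capitals, while the genes rose in both ETS1 groups (MCM6, TYMS), fell in both (E2F1), rose more in ETS1-Low than in ETS1-High (E2F2), or rose in ETS1-Low and were called lower in ETS1-High (CDT1). Those of RRM2, one of the 3 largest rises, are shown with CCAAT in capitals because its window held no match to the E2F letters. For RRM2 120 bases are shown, and for each other gene 200. The RRM2 window also held a CCAAT at -123 and a CGGAAG at -207 from the start, outside the bases shown. All the stretches shown are from GRCh38.p14 and run 5′ to 3′ on the gene's strand.
MCM6, chr2:135876444-135876643, minus strand: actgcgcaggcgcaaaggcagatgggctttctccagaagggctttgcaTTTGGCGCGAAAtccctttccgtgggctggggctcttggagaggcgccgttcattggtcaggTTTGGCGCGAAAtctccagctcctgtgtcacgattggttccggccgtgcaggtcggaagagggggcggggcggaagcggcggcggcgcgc
TYMS, chr18:657453-657652, plus strand: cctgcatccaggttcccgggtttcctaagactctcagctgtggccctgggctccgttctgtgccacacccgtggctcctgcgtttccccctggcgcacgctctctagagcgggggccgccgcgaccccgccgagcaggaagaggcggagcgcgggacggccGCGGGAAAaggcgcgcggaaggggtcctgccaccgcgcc
E2F1, chr20:33686386-33686585, minus strand: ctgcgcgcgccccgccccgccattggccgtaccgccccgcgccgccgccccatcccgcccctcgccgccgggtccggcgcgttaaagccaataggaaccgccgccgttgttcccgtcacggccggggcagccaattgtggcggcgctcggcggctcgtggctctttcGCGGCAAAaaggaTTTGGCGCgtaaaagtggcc
E2F2, chr1:23531234-23531433, minus strand: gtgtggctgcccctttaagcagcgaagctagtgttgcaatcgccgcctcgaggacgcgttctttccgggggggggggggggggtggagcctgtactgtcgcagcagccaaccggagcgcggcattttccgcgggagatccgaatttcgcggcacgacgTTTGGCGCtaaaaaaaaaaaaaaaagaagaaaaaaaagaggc
CDT1, chr16:88803589-88803788, plus strand: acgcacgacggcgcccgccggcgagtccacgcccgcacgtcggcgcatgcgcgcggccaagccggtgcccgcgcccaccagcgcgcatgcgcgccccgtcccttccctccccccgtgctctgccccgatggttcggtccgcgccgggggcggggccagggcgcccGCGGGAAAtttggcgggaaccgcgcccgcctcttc
RRM2, chr2:10122619-10122738, plus strand: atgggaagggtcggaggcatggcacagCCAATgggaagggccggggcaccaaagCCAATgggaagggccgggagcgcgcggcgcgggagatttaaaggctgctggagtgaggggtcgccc
MCM6 holds 4 matches in pairs that overlap each other, because TTTGGCGC on one strand shares bases with TTTCGCGC on the other, and E2F1 holds 2. The same letters stand in genes that changed in opposite ways, as the values below show.

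Of the 40 genes, 29 were higher in ETS1-Low than in RFP and 7 were lower, at a Benjamini-Hochberg adjusted p under 0.05 in edgeR's quasi-likelihood test across all 17235 genes tested. In the same comparison 37.9% of all genes were called higher and 36.2% lower (74.1% called). Without replicate 2 of ETS1-Low, 4 of the 40 were called lower in place of 7. The median log2 fold change was 0.29 for the 40 genes and 0.01 for all genes tested. The deposited FPKM values scale counts by library size and by a length per gene, and that length differed between libraries for some genes. From RFP replicate 1 to ETS1-Low replicate 1, library totals went from 46035476 to 39484704 counts. GINS3 went from 1197 to 977 counts and from 13.06 to 12.4 FPKM, close to what its counts and the totals alone give. GINS4 went from 2442 to 2240.91 counts and from 18.4 to 16.92 FPKM, lower than its counts and the totals alone give. Fitting limma to the FPKM values as log2(FPKM + 1) gave 21 higher and 9 lower in ETS1-Low. In ETS1-High against RFP the calls were split, with 19 higher and 16 lower, beside 37.0% and 37.2% of all genes (74.2% called). Their median there was 0.05 beside -0.01 for all genes. With upper-quartile factors it was -0.02 beside -0.07 for all genes, and on log2(FPKM + 1) -0.10 beside -0.08. Between ETS1-High and ETS1-Low, 3 genes were higher and 29 lower, beside 29.9% and 29.3% of all genes (59.2% called), with a median of -0.14.

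Most of these changes were small. A change of at least 1.5-fold was called for 8 of the 40 genes in ETS1-Low against RFP, all higher, where 15.8% of all genes were higher and 18.4% lower by that much. In ETS1-High against RFP it was called for 6 higher and 1 lower, beside 16.7% and 17.5% of all genes. Between ETS1-High and ETS1-Low none of the 40 changed by 1.5-fold in edgeR, although 32 were called without a minimum fold, and 10.2% of all genes were higher and 7.69% lower by that much. The libraries of a group lay close together. In ETS1-Low all 3 libraries lay above all 3 RFP libraries for 30 genes and below them for 7 (38.8% and 37.2% of all genes), and in ETS1-High for 18 and 16 (37.5% and 38.0%). Ordered by group means, 17 genes were highest in ETS1-Low and lowest in RFP, 10 were highest in ETS1-Low and lowest in ETS1-High, 8 had means that went down from RFP to ETS1-Low to ETS1-High and 5 had means that went up, which describes the means and was not tested.

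**Figure D1:**
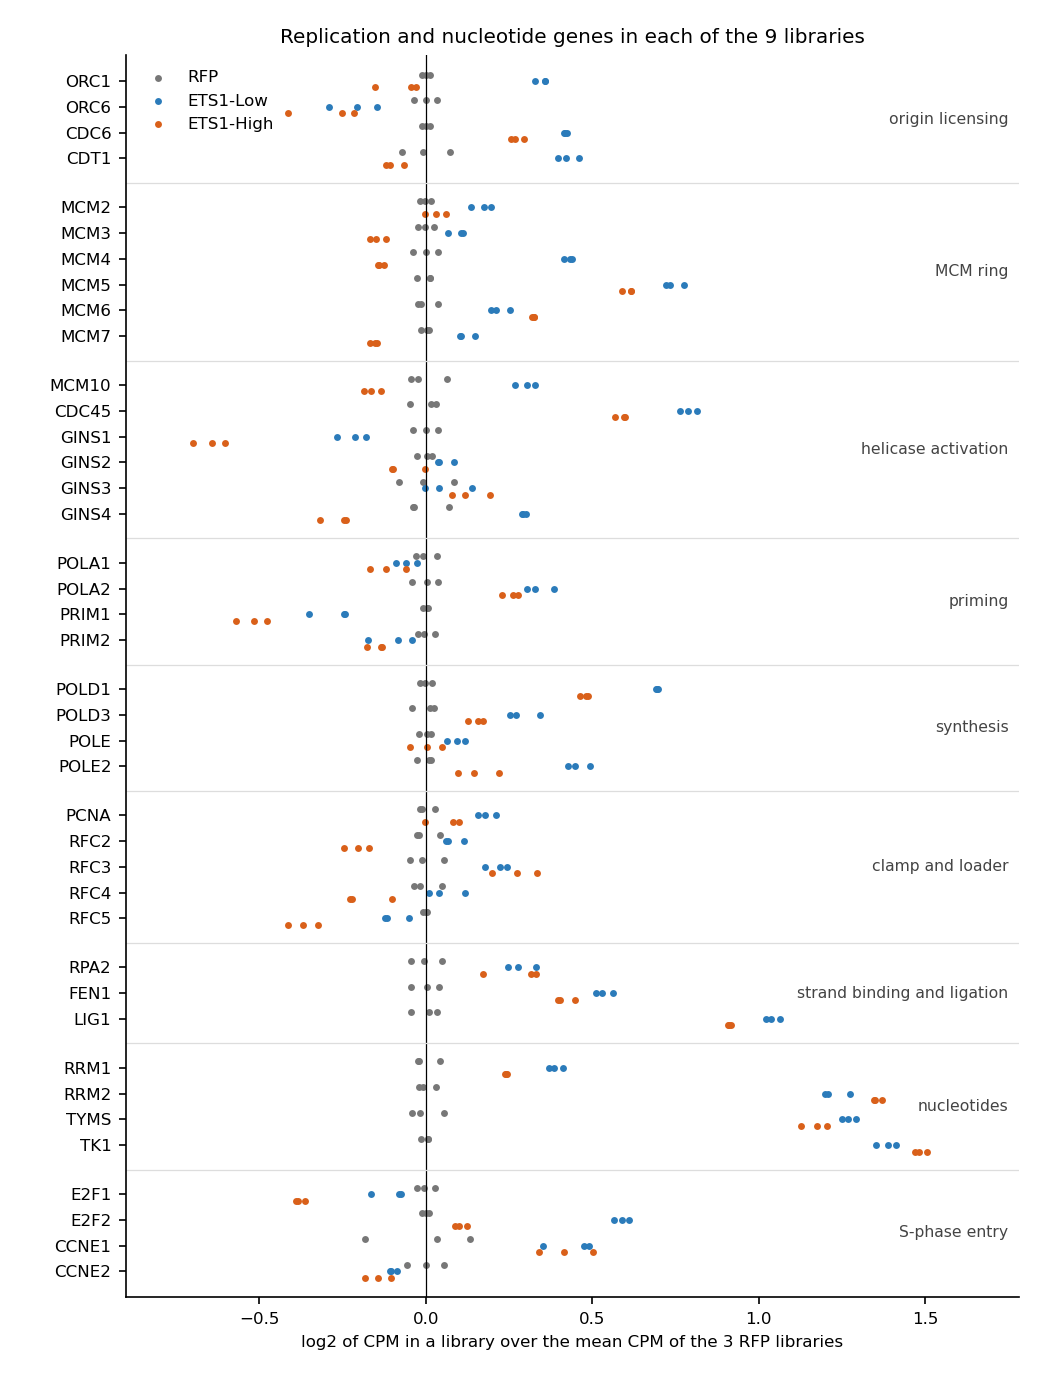
Each point is 1 library of RFP (grey), ETS1-Low (blue) or ETS1-High (orange), and the x axis gives the log2 of its CPM over the mean CPM of the 3 RFP libraries, with genes grouped by role. TK1, RRM2 and TYMS stand more than 1 log2 unit to the right in both ETS1 groups, and GINS1, PRIM1 and E2F1 stand to the left.

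The S-phase entry genes went in opposite directions. E2F1, an activator of the G1 to S genes (chr20:33675477-33686385, minus strand, GENCODE v44 on GRCh38), was at 92.6, 89.2 and 90.5 CPM in RFP, at 81.0, 86.1 and 85.9 CPM in ETS1-Low and at 70.5, 69.6 and 69.2 CPM in ETS1-High. The 3 groups did not overlap. The log2 fold change of E2F1 was -0.38 (SE 0.03, edgeR adjusted p = 8.43e-15) in ETS1-High against RFP and -0.11 (SE 0.03, adjusted p = 0.00339) in ETS1-Low, and the latter was -0.07 and no longer called without replicate 1 of ETS1-Low (edgeR adjusted p = 0.0585). E2F2, a related activator, went the other way in ETS1-Low. The RFP libraries had 68.1, 67.1 and 67.6 CPM of E2F2, the ETS1-Low libraries 100.1, 103 and 102 and the ETS1-High libraries 73.7, 72.5 and 71.8, a log2 difference of 0.59 (SE 0.03) for ETS1-Low. Its rise in ETS1-High, 0.10 (SE 0.03), was not called with upper-quartile factors (0.04) or on log2(FPKM + 1) (-0.01). Compared per length, E2F1 was the more abundant of the pair, with a ratio of its FPKM to that of E2F2 of 2.73 ± 0.02 (SD, n = 3) in RFP, 1.72 ± 0.06 in ETS1-Low and 1.97 ± 0.05 in ETS1-High.

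The cyclin E genes, whose products activate CDK2 at the start of S phase, were also split. CCNE1, the lowest of the 40 genes per length, had 319 to 488 counts a library and rose by a log2 fold change of 0.44 (SE 0.08) in ETS1-Low and 0.42 (SE 0.08) in ETS1-High. CCNE2 fell by 0.10 (SE 0.04) and by 0.14 (SE 0.04) on the log2 scale. Its call in ETS1-Low was lost without replicate 3 of RFP, where it was -0.07 (edgeR adjusted p = 0.126), without a filter on low counts (-0.09), and without replicate 2 or replicate 3 of ETS1-Low (-0.09 in each). The FPKM of CCNE2 over that of CCNE1 was 3.96 ± 0.60 (SD, n = 3) in RFP, 2.62 ± 0.19 in ETS1-Low and 2.48 ± 0.20 in ETS1-High. In GENCODE v44, 37.0% of the exon bases of CCNE2 lie opposite INTS8, an Integrator subunit gene at 118.7 CPM in RFP, 108.8 in ETS1-Low and 94.6 in ETS1-High. The kit marks strand, but whether the counting used it is not stated, so reads of CCNE2 and INTS8 may not be separable.

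Of the 4 licensing genes, 3 were higher in ETS1-Low than in RFP, while in ETS1-High 1 was higher and 2 were lower. The shares of all genes tested were 37.9% higher and 36.2% lower in ETS1-Low, and 37.0% and 37.2% in ETS1-High. CDT1, which brings the MCM ring to the origin (chr16:88803789-88809258, plus strand), was at 61.1, 67.6 and 63.9 CPM in RFP, at 88.4, 84.6 and 85.9 CPM in ETS1-Low and at 59.7, 59.1 and 61.4 CPM in ETS1-High. ETS1-Low stood above all other libraries, and ETS1-High overlapped RFP. CDT1 had a log2 fold change of 0.43 (SE 0.03, edgeR adjusted p = 9.86e-16) in ETS1-Low, -0.10 (SE 0.04, adjusted p = 0.0141) in ETS1-High against RFP and -0.52 (SE 0.04, adjusted p = 2.63e-18) between ETS1-High and ETS1-Low. The call against RFP in ETS1-High was lost without replicate 2 of RFP (-0.06) or replicate 2 of ETS1-High (-0.08). ORC1, the largest subunit of the origin recognition complex, had a like pattern, 0.35 (SE 0.04) in ETS1-Low and -0.42 (SE 0.04) from ETS1-Low to ETS1-High, with -0.08 (SE 0.04, edgeR adjusted p = 0.0539) not called against RFP. It was called lower in some other settings, among them DESeq2 size factors (-0.09), upper-quartile factors (-0.14), the 4 FPKM fits and without replicate 1 of ETS1-High (-0.09). CDC6, the loading ATPase, was higher in both, by 0.42 (SE 0.03) and 0.27 (SE 0.03).

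ORC6, the smallest subunit of the origin complex (chr16:46689643-46698394, plus strand), was lower in both ETS1 groups. It was at 73.2, 75.0 and 76.7 CPM in RFP, at 67.8, 64.9 and 61.3 CPM in ETS1-Low and at 63.0, 56.2 and 64.5 CPM in ETS1-High. Both ETS1 groups lay below RFP and overlapped each other. For ORC6 the log2 fold change was -0.21 (SE 0.04, edgeR adjusted p = 9.00e-05) in ETS1-Low and -0.29 (SE 0.04, adjusted p = 1.32e-06) in ETS1-High.

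The 6 subunits of the MCM ring, which act as a single hexamer, did not change together. All 6 were called higher in ETS1-Low than in RFP, beside 37.9% of all genes. But on log2(FPKM + 1) the median of all genes was -0.07. There MCM3 was called lower at -0.09 (limma adjusted p = 0.00397), MCM7 was at -0.04, and MCM2 was no longer called at 0.03. Centred on the median gene, MCM3 was at -0.02 and not called (limma adjusted p = 0.607). In ETS1-High, MCM5 and MCM6 were higher, MCM3, MCM4 and MCM7 lower, and MCM2 at 0.03 (SE 0.03, edgeR adjusted p = 0.367) was not called. Of all genes, 37.0% were higher and 37.2% lower there. MCM5 changed the most against RFP, with 133 ± 2.0 CPM (SD, n = 3) in RFP, 224 ± 4.6 in ETS1-Low and 203 ± 2.2 in ETS1-High, log2 fold changes of 0.74 (SE 0.03) and 0.61 (SE 0.03). MCM6 (chr2:135839626-135876443, minus strand) was at 200.4, 192 and 193 CPM in RFP, at 233, 224 and 226 CPM in ETS1-Low and at 244, 245 and 245 CPM in ETS1-High. Its 3 groups did not overlap. The log2 fold change of MCM6 was 0.22 (SE 0.03, edgeR adjusted p = 3.46e-09) in ETS1-Low, 0.32 (SE 0.03, adjusted p = 3.56e-14) in ETS1-High and 0.10 (SE 0.03, adjusted p = 0.00201) between ETS1-High and ETS1-Low, the only rise between them in the ring.

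MCM4, on chromosome 8, was at 395, 375 and 386 CPM in RFP, at 522, 513 and 520.3 CPM in ETS1-Low and at 353, 349 and 349 CPM in ETS1-High. ETS1-Low stood above and ETS1-High below every RFP library. MCM4 had a log2 fold change of 0.43 (SE 0.03, edgeR adjusted p = 7.62e-19) in ETS1-Low, -0.14 (SE 0.03, adjusted p = 3.92e-05) in ETS1-High against RFP and -0.56 (SE 0.03, adjusted p = 5.32e-23) between ETS1-High and ETS1-Low, the largest fall among the 40 genes in that comparison. Expected counts of MCM4 were not whole in any of the 9 libraries, so RSEM split some of its reads with other genes. MCM3 was at 0.10 (SE 0.03) in ETS1-Low and -0.15 (SE 0.03) in ETS1-High against RFP, and MCM7 at 0.12 (SE 0.03) and -0.16 (SE 0.03).

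Per length, the ring subunits were far from equal in RFP, where MCM7 was highest at 231 ± 0.71 FPKM (SD, n = 3), MCM5 stood at 57.6 ± 2.1 FPKM, and MCM5 or MCM6 was lowest in each library. The ratio of the highest to the lowest subunit was 4.05 ± 0.13 in RFP, 3.63 ± 0.04 in ETS1-Low and 2.85 ± 0.08 in ETS1-High. MCM2 stood above MCM5 in RFP, with a ratio of FPKM of 1.24 ± 0.06, and below it in ETS1-Low (0.75 ± 0.01) and ETS1-High (0.76 ± 0.04).

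Of the 6 helicase activation genes, 3 were higher and 1 lower in ETS1-Low, and 2 were higher and 3 lower in ETS1-High. The shares of all genes tested were 37.9% higher and 36.2% lower in ETS1-Low, and 37.0% and 37.2% in ETS1-High. GINS1, a subunit of the GINS complex that links CDC45 to the MCM ring (chr20:25391008-25452700, plus strand), fell the most of all 40 genes in ETS1-High. It was at 86.5, 82.1 and 84.4 CPM in RFP, at 74.5, 72.8 and 70.1 CPM in ETS1-Low and at 51.9, 54.1 and 55.5 CPM in ETS1-High. The groups did not overlap. For GINS1 the log2 fold change was -0.22 (SE 0.03, edgeR adjusted p = 1.19e-07) in ETS1-Low, -0.65 (SE 0.03, adjusted p = 1.29e-22) in ETS1-High and -0.43 (SE 0.04, adjusted p = 4.21e-15) between ETS1-High and ETS1-Low.

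No other GINS subunit was called lower in all 3 comparisons, as GINS1 was. From ETS1-Low to ETS1-High, GINS2 and GINS4 were called lower too. GINS4, on chromosome 8, was at 50.7, 47.2 and 47.1 CPM in RFP, at 59.3, 59.1 and 59.6 CPM in ETS1-Low and at 40.8, 38.8 and 41.0 CPM in ETS1-High. As for MCM4, ETS1-Low lay above RFP and ETS1-High below it. The log2 fold change of GINS4 was 0.29 (SE 0.04, edgeR adjusted p = 6.73e-10) in ETS1-Low, -0.27 (SE 0.04, adjusted p = 2.08e-08) in ETS1-High and -0.56 (SE 0.04, adjusted p = 3.01e-18) between them, but the rise in ETS1-Low was absent on log2(FPKM + 1), at 0.00062 (limma adjusted p = 0.994). GINS2 was called in neither comparison with RFP (0.05 with SE 0.04 and -0.07 with SE 0.04), although the latter was called lower with upper-quartile factors (-0.13) and on log2(FPKM + 1) (-0.14). GINS3 was at 0.06 (SE 0.05) in ETS1-Low and 0.13 (SE 0.05, edgeR adjusted p = 0.0174) in ETS1-High, a call lost with upper-quartile factors (0.07), in the DESeq2 Wald test (0.12), on FPKM (0.07), and without replicate 2 of RFP or replicate 2 of ETS1-High (0.09 and 0.10). The ratio of the highest to the lowest GINS subunit per length was 2.57 ± 0.10 in RFP, 2.01 ± 0.03 in ETS1-Low and 1.59 ± 0.07 in ETS1-High (SD, n = 3). In each group the highest was GINS1.

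CDC45, the partner of GINS in the active helicase, had 50.6 ± 1.4 CPM (SD, n = 3) in RFP, 87.4 ± 1.6 in ETS1-Low and 76.0 ± 0.79 in ETS1-High. Its log2 fold changes were 0.79 (SE 0.03) and 0.59 (SE 0.03). MCM10, which helps to start the helicase, was at 0.30 (SE 0.03) in ETS1-Low and -0.16 (SE 0.04) in ETS1-High.

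**Figure D2:**
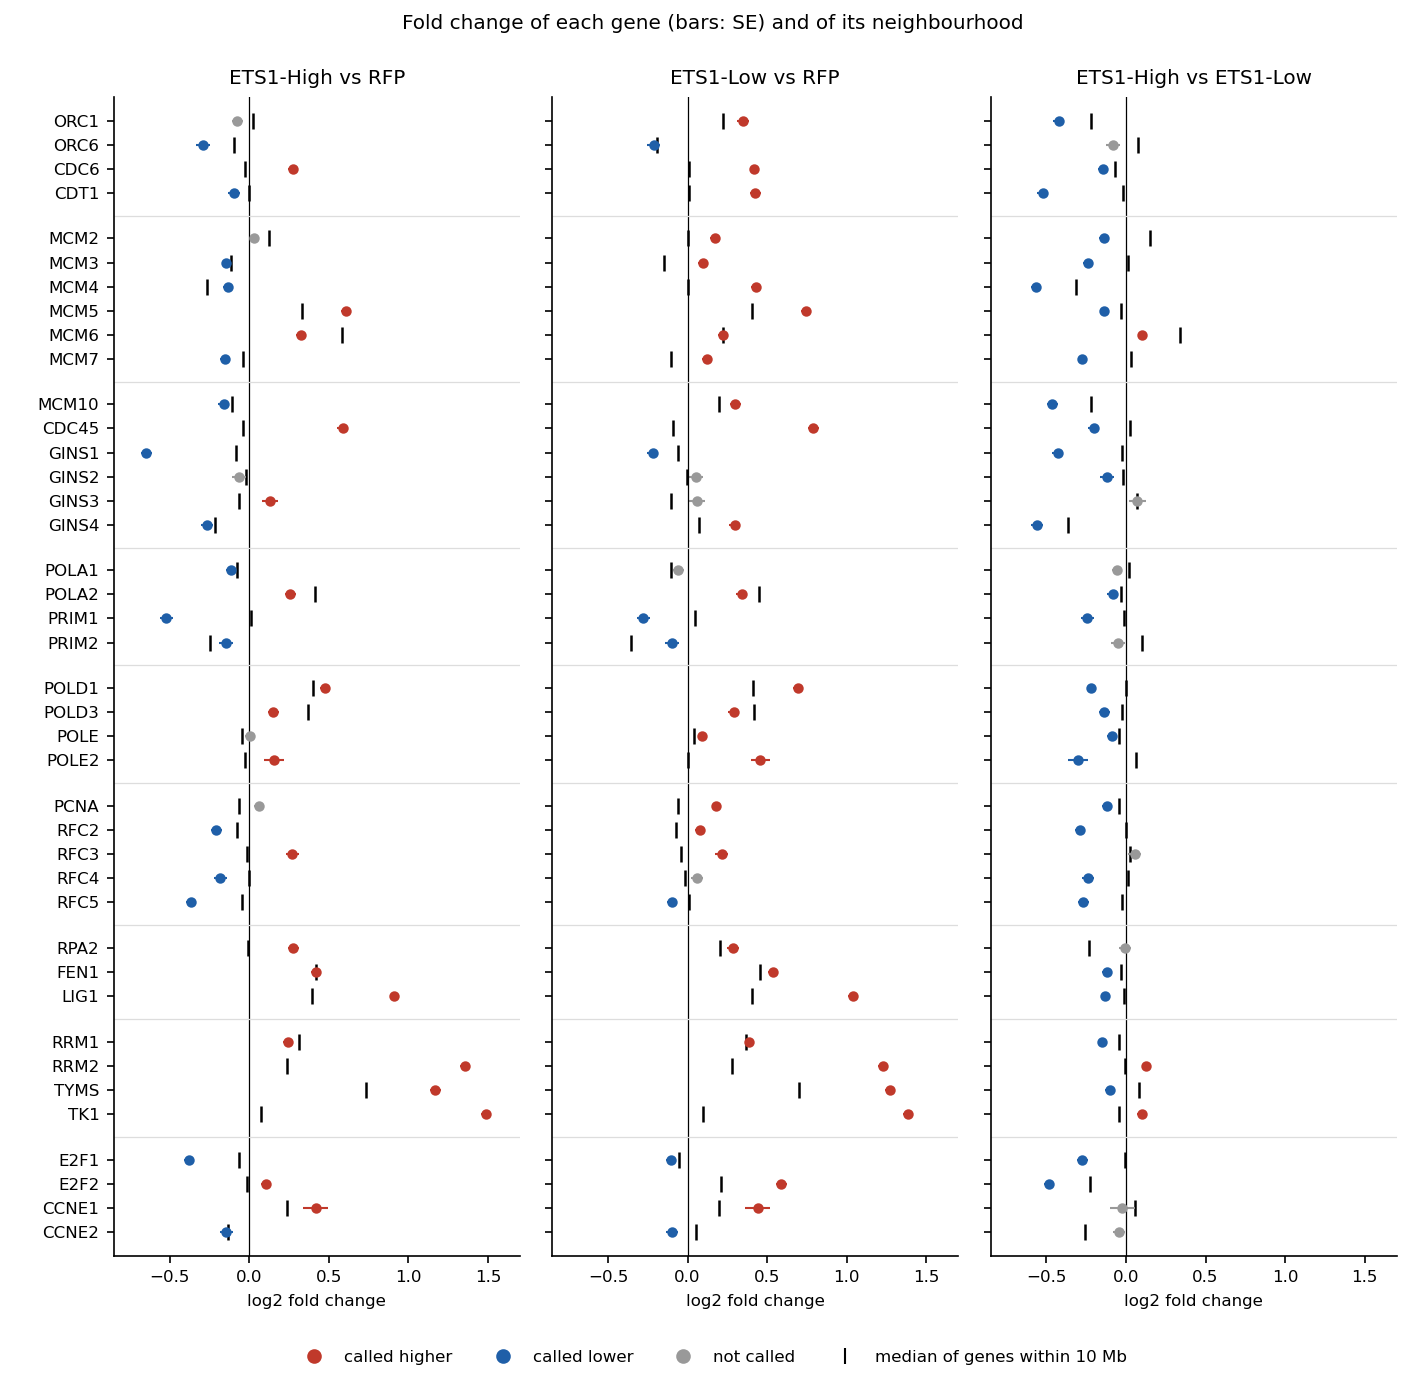
Points give the log2 fold change of each gene with its SE, in 3 panels for ETS1-High against RFP, ETS1-Low against RFP and ETS1-High against ETS1-Low, red for called higher, blue for called lower and grey for not called, and black ticks give the median of the other expressed genes within 10 Mb. Points of the MCM ring and of helicase activation lie on both sides of 0 in the first panel, and 29 of 40 points are blue in the third.

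The primase genes fell while their partner POLA2 rose. PRIM1, the catalytic primase subunit that makes the RNA primers (chr12:56730438-56752374, minus strand), was at 47.2, 47.6 and 47.7 CPM in RFP, at 40.1, 40.2 and 37.3 CPM in ETS1-Low and at 34.2, 32.02 and 33.3 CPM in ETS1-High. The groups did not overlap. PRIM1 had a log2 fold change of -0.28 (SE 0.04, edgeR adjusted p = 1.36e-08) in ETS1-Low, -0.52 (SE 0.04, adjusted p = 9.71e-17) in ETS1-High and -0.24 (SE 0.04, adjusted p = 1.25e-06) between ETS1-High and ETS1-Low. PRIM2, the other primase subunit, fell by 0.10 (SE 0.04) in ETS1-Low and by 0.15 (SE 0.04) in ETS1-High, and its call in ETS1-Low was lost in the DESeq2 Wald test, without a filter on low counts, on centred FPKM, and without replicate 1 or 3 of RFP or replicate 2 or 3 of ETS1-Low (-0.10, -0.09, -0.10 and -0.06). POLA1, the catalytic polymerase subunit, was at -0.06 (SE 0.03), not called, and -0.12 (SE 0.03). The former was called lower in some other settings, among them DESeq2 size factors (-0.08), upper-quartile factors (-0.11), a minimum of 10 counts (-0.08) and log2(FPKM + 1) (-0.16). POLA2, its regulatory subunit, was at 0.34 (SE 0.04) and 0.26 (SE 0.03). In GENCODE v44, 16.8% of the exon bases of POLA2 and 10.9% of those of PRIM1 are shared with another gene on the same strand.

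All 4 polymerase delta and epsilon genes were called higher in ETS1-Low, and 3 in ETS1-High, beside 37.9% and 37.0% of all genes. But POLE turned to -0.10 in ETS1-Low and POLE2 to -0.13 in ETS1-High on log2(FPKM + 1). POLD1, the catalytic subunit of the lagging-strand polymerase, rose the most, with log2 fold changes of 0.69 (SE 0.03) and 0.48 (SE 0.03). POLD3, an accessory subunit, was at 0.29 (SE 0.03) and 0.15 (SE 0.03), and POLE2, the second subunit of polymerase epsilon, at 0.46 (SE 0.06) and 0.16 (SE 0.06). The call of POLE2 in ETS1-High was also lost with upper-quartile factors, in the DESeq2 Wald test, and without replicate 2 of RFP (0.14) or replicate 2 of ETS1-High (0.13), and that of POLE in ETS1-Low with upper-quartile factors (0.04). POLE, the catalytic subunit of the leading-strand polymerase (chr12:132623753-132687376, minus strand), had the smallest changes of the 40 genes over the 3 comparisons. It was at 207, 208 and 204 CPM in RFP, at 216, 220.2 and 224 CPM in ETS1-Low and at 214, 207 and 199.96 CPM in ETS1-High, where it overlapped RFP. For POLE the log2 fold change was 0.09 (SE 0.03, edgeR adjusted p = 0.00523) in ETS1-Low and 0.0023 (95% confidence interval -0.06 to 0.06, adjusted p = 0.949) in ETS1-High. The FPKM of POLD1 over that of POLE was 0.78 ± 0.02 (SD, n = 3) in RFP, 1.16 ± 0.04 in ETS1-Low and 1.03 ± 0.10 in ETS1-High.

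The clamp PCNA changed little, by 0.18 (SE 0.03) in ETS1-Low and 0.06 (SE 0.03, edgeR adjusted p = 0.0666) in ETS1-High, where it was called only without replicate 1 of RFP or replicate 1 of ETS1-High. Of the 4 loader subunits, which open the clamp around DNA, RFC3 was the one called higher in ETS1-High, by 0.27 (SE 0.04). On log2(FPKM + 1) RFC3 was not called in ETS1-High (0.09) or in ETS1-Low (0.02, against 0.21 with SE 0.04 in edgeR), and PCNA was not called in ETS1-Low (0.04). RFC2, RFC4 and RFC5 were lower in ETS1-High in edgeR, by log2 fold changes of -0.21 (SE 0.03), -0.18 (SE 0.04) and -0.37 (SE 0.03). In ETS1-Low they were at 0.08 (SE 0.03, called), 0.06 (SE 0.04, not called) and -0.10 (SE 0.03, called), but the call of RFC2 was lost in other settings, among them DESeq2 size factors, upper-quartile factors, the DESeq2 Wald test, a minimum of 10 counts, and without replicate 2 or 3 of RFP or replicate 1 of ETS1-Low, and RFC2 was at -0.06 on log2(FPKM + 1). The call of RFC5 in ETS1-Low was lost without replicate 2 of ETS1-Low (-0.08).

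The 3 strand factors were called higher in both ETS1 groups, beside 37.9% of all genes in ETS1-Low and 37.0% in ETS1-High. LIG1, the ligase that joins Okazaki fragments (chr19:48115445-48170603, minus strand), was at 94.1, 89.03 and 92.5 CPM in RFP, at 192, 187 and 189 CPM in ETS1-Low and at 173, 174 and 172 CPM in ETS1-High, and every ETS1 library lay above every RFP library. Its log2 fold changes were 1.04 (SE 0.03, edgeR adjusted p = 1.10e-33) and 0.91 (SE 0.03, adjusted p = 3.43e-31). FEN1, the flap nuclease that acts before LIG1, rose by 0.53 (SE 0.03) and 0.42 (SE 0.03), and RPA2, a subunit of the protein that coats single strands, by 0.28 (SE 0.04) in both.

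The 4 nucleotide genes rose the most of any role. Their median was 1.26 in ETS1-High, and their log2 fold changes ran from 0.39 to 1.38 in ETS1-Low. All 4 were called higher in both ETS1 groups, beside 37.9% of all genes in ETS1-Low and 37.0% in ETS1-High. TK1, the S-phase thymidine kinase of the salvage pathway (chr17:78174091-78187233, minus strand), was at 47.4, 48.1 and 48.1 CPM in RFP, at 127, 122 and 125 CPM in ETS1-Low and at 134, 136 and 133 CPM in ETS1-High. The groups did not overlap. The log2 fold change of TK1 was 1.38 (SE 0.03, edgeR adjusted p = 6.46e-38) in ETS1-Low, 1.49 (SE 0.03, adjusted p = 1.71e-39) in ETS1-High and 0.10 (SE 0.03, adjusted p = 0.00326) between ETS1-High and ETS1-Low.

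RRM2, the small subunit of ribonucleotide reductase whose level follows S phase (chr2:10120698-10211725, plus strand), was at 214, 208 and 207 CPM in RFP, at 507, 481 and 485 CPM in ETS1-Low and at 533, 542 and 534 CPM in ETS1-High. Every ETS1 library lay well above RFP. RRM2 had a log2 fold change of 1.23 (SE 0.03, edgeR adjusted p = 2.91e-37) in ETS1-Low, 1.35 (SE 0.03, adjusted p = 2.99e-39) in ETS1-High and 0.13 (SE 0.03, adjusted p = 1.67e-04) between ETS1-High and ETS1-Low, the last not called on log2(FPKM + 1) at 0.07 (limma adjusted p = 0.133). RRM1, the large subunit, which is steadier through the cycle, rose by 0.39 (SE 0.03) and 0.24 (SE 0.03). The FPKM of RRM2 over that of RRM1 was 1.12 ± 0.01 (SD, n = 3) in RFP, 2.12 ± 0.06 in ETS1-Low and 2.44 ± 0.05 in ETS1-High, so the pair went from near parity to more than 2 of RRM2 for each RRM1. RRM2 counts were not whole in 8 libraries and RRM1 counts in 6.

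TYMS, thymidylate synthase (chr18:657653-673578, plus strand), was at 85.7, 81.5 and 80.1 CPM in RFP, at 202, 196 and 199 CPM in ETS1-Low and at 180.1, 186 and 190.04 CPM in ETS1-High. Both ETS1 groups lay above RFP and did not overlap each other. For TYMS the log2 fold change was 1.27 (SE 0.03, edgeR adjusted p = 1.24e-36) in ETS1-Low, 1.17 (SE 0.03, adjusted p = 3.98e-35) in ETS1-High and -0.10 (SE 0.03, adjusted p = 0.00400) between ETS1-High and ETS1-Low, and the last was not called on log2(FPKM + 1) at -0.07 (limma adjusted p = 0.127). In GENCODE v44, 39.9% of the exon bases of TYMS lie opposite ENOSF1, which had 0 to 10 counts a library.

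**Figure D3:**
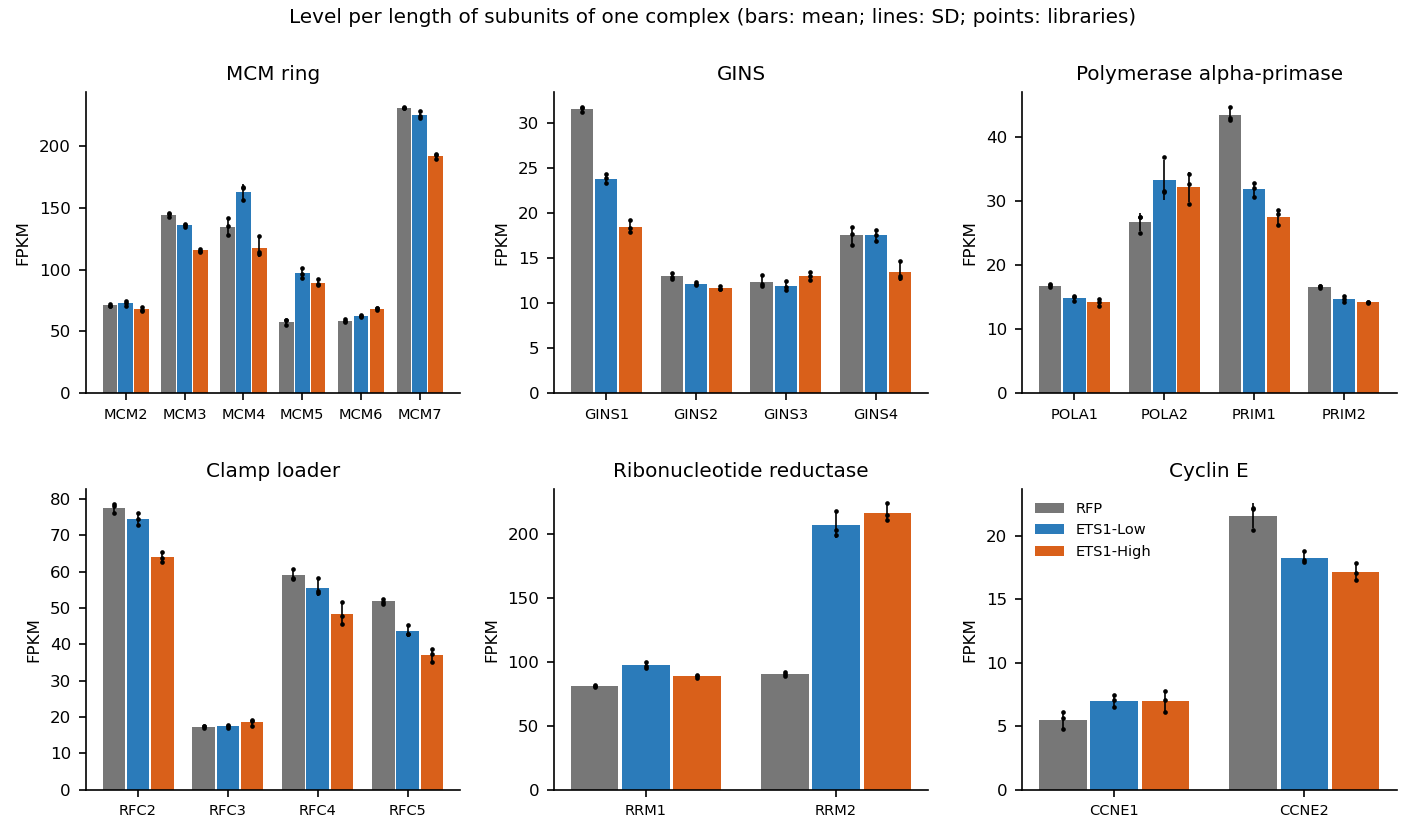
Bars give the mean FPKM of 3 libraries per group with the SD as a line and each library as a point, for subunits of 6 complexes or pairs in RFP (grey), ETS1-Low (blue) and ETS1-High (orange). RRM2 rises from 90.2 FPKM in RFP to 206 and 216 while RRM1 stays between 80.8 and 97.1, and GINS1 falls from 31.5 to 23.8 and 18.5.

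From ETS1-Low to ETS1-High genes of every role were called lower, where 29.3% of all genes were. All 4 polymerase delta and epsilon genes, 5 of 6 MCM genes, 5 of 6 helicase activation genes, 4 of 5 clamp genes and 3 of 4 licensing genes were lower, as were 2 of 4 priming genes, 2 of 3 strand factors, 2 of 4 S-phase entry genes and 2 of 4 nucleotide genes, of which the other 2 were higher. RRM2, MCM6 and TK1 were the 3 genes called higher, by 0.13, 0.10 and 0.10. The largest falls after MCM4, GINS4 and CDT1 were those of E2F2 (-0.49, SE 0.03), MCM10 (-0.46, SE 0.04), GINS1 and ORC1. The call of POLA2 was lost with DESeq2 size factors, in the DESeq2 Wald test, with no filter on low counts, in the FPKM fits, and without replicate 3 of RFP, 2 or 3 of ETS1-Low or any of ETS1-High. Those of GINS2 (DESeq2 Wald test, FPKM, and without replicate 1 of ETS1-Low or 1 or 3 of ETS1-High) and POLE (FPKM, and without replicate 3 of either ETS1 group) were lost too, as were those of CDC6, LIG1 and POLD3 on log2(FPKM + 1). Leaving out 1 library gave a call to ORC6 (replicate 3 of either ETS1 group). All 3 ETS1-High libraries lay above all 3 ETS1-Low libraries for 3 genes and below them for 29, beside 32.1% and 31.1% of all genes.

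Genes with the E2F letters were found among those that rose and those that fell. Of the 19 genes with them, 14 were higher and 2 lower in ETS1-Low, and 9 higher and 6 lower in ETS1-High. Of the 15 genes whose window had none, 10 were higher and 4 lower, and 7 higher and 7 lower. The medians were 0.18 with and 0.35 without the letters in ETS1-Low, and 0.06 and -0.08 in ETS1-High. Of the 12 genes with the ETS core letters, 8 were higher and none lower in ETS1-Low, and 5 were higher and 5 lower in ETS1-High, and of the 22 without them 16 and 6, and 11 and 8. These are counts of the chosen genes, and no test of the letters was made. The shares of all genes tested were 37.9% higher and 36.2% lower in ETS1-Low, and 37.0% and 37.2% in ETS1-High.

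The expression of neighbouring genes moved with some of these values. For each gene the median log2 fold change of the other tested genes within 10 Mb either side with a mean log2 CPM above 1 was taken as its local median, from GENCODE v44 positions. The lowest and highest local medians were -0.27 and 0.73 for ETS1-High against RFP, and -0.36 and 0.70 for ETS1-Low, whereas over all 12296 such expressed genes the medians were 0.03 and 0.06. Around TYMS, near the end of the short arm of chromosome 18, it was 0.73 in ETS1-High and 0.70 in ETS1-Low, and TYMS exceeded it by 0.44 and 0.57. TK1, RRM2 and LIG1 exceeded their local medians by 1.41, 1.12 and 0.52 in ETS1-High. GINS1 and PRIM1 were below theirs by log2 values of -0.56 and -0.53. Around MCM4 the local median was -0.27 in ETS1-High, lower than MCM4 itself, and -0.32 between ETS1-High and ETS1-Low, and around GINS4 it was -0.36 in the latter. Less the local median, 7 called genes changed sign in ETS1-High against RFP (MCM4, MCM6, RRM1, POLA2, PRIM2, FEN1 and POLD3) and 4 in ETS1-Low (MCM6, POLA2, PRIM2 and POLD3), and MCM6 changed sign between ETS1-High and ETS1-Low. The 40 genes then had a median of -0.02 for ETS1-High, 0.17 for ETS1-Low and -0.17 for the difference of the 2. Of the 30 genes with a local median within 0.25 of 0, 20 were higher and 6 lower in ETS1-Low and 10 higher and 15 lower in ETS1-High, and of the other 10 genes 9 were higher and 1 lower in each. The shares of all genes tested were 37.9% higher and 36.2% lower in ETS1-Low, and 37.0% and 37.2% in ETS1-High. The part of neighbourhood in the changes of the 40 genes was not tested.

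Other genes of the pathway were counted in the same fit. Among 74 further genes for origins, forks, nucleotides and S-phase entry, 38 were higher and 24 lower in ETS1-Low, with a median of 0.10. Of all genes tested, 37.9% were higher and 36.2% lower there. In ETS1-High 28 of the 74 were higher and 31 lower (median -0.03), beside 37.0% and 37.2% of all genes. Between ETS1-High and ETS1-Low 17 were higher and 35 lower (median -0.08), beside 29.9% and 29.3%. The same shares of all genes apply to every further list below. Of the 14 origin and firing genes, 8 were higher and 5 lower in ETS1-Low and 5 higher and 7 lower in ETS1-High, where the replisome gene DONSON (0.81, SE 0.04) and ORC2 (0.78, SE 0.04) rose the most and MTBP (-0.44, SE 0.04) and the origin kinase CDC7 (-0.25, SE 0.04) fell the most. Of the 19 fork and chromatin genes, 12 were higher and 4 lower in ETS1-Low and 7 higher and 6 lower in ETS1-High. In ETS1-High the small polymerase delta subunit POLD4 (0.71, SE 0.09) and the chromatin assembly subunit CHAF1B (0.65, SE 0.03) rose the most, and RPA3 (-0.44, SE 0.05) and the large loader subunit RFC1 (-0.39, SE 0.03) fell the most. The wider nucleotide list did not rise as TK1, RRM2 and TYMS did. Of its 20 genes, 10 were higher and 5 lower in ETS1-Low and 8 higher and 9 lower in ETS1-High, with a median of -0.01 in the latter, led by the purine enzyme ATIC (0.80, SE 0.03) and the deoxycytidylate deaminase DCTD (0.77, SE 0.04). RRM2B, the p53-induced small subunit of ribonucleotide reductase, fell by 0.66 (SE 0.04) on the log2 scale.

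Larger changes stood among the regulators of S-phase entry. Of these 21 genes, 8 were higher and 10 lower in ETS1-Low and 8 higher and 9 lower in ETS1-High. Over all genes tested, 37.9% were higher and 36.2% lower in ETS1-Low, and 37.0% and 37.2% in ETS1-High. CDKN1A, which encodes the CDK inhibitor p21, stood at 3.62 ± 0.40 CPM (SD, n = 3) in RFP, 12.7 ± 0.91 in ETS1-Low and 20.4 ± 0.57 in ETS1-High. CDKN2C, which encodes the CDK4 and CDK6 inhibitor p18, went from 12.8 ± 0.03 CPM to 61.9 ± 1.2 and 63.7 ± 0.73. CCND2, a D-type cyclin, fell from 1079 to 1188 counts in the RFP libraries to 6 to 12 counts in the ETS1 libraries, and CDC25A, a phosphatase that activates CDK2, fell by 0.52 (SE 0.04) on the log2 scale in ETS1-High. Of 15 genes of G2 and mitosis, 13 were higher and 1 lower in ETS1-Low and 12 higher and 1 lower in ETS1-High, with medians of 0.18 and 0.21, and 7 were higher and 6 lower between ETS1-High and ETS1-Low. Over all 5 further lists, these included, 51 genes were higher and 25 lower in ETS1-Low and 40 higher and 32 lower in ETS1-High, and on log2(FPKM + 1) the calls were 36 and 33, and 29 and 40. In ETS1-High cyclin A2, CCNA2 (0.80, SE 0.03), and the mitotic kinase AURKA (0.73, SE 0.03) rose the most, and cyclin B1, CCNB1 (-0.17, SE 0.03), was the one called lower.

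**Figure D4:**
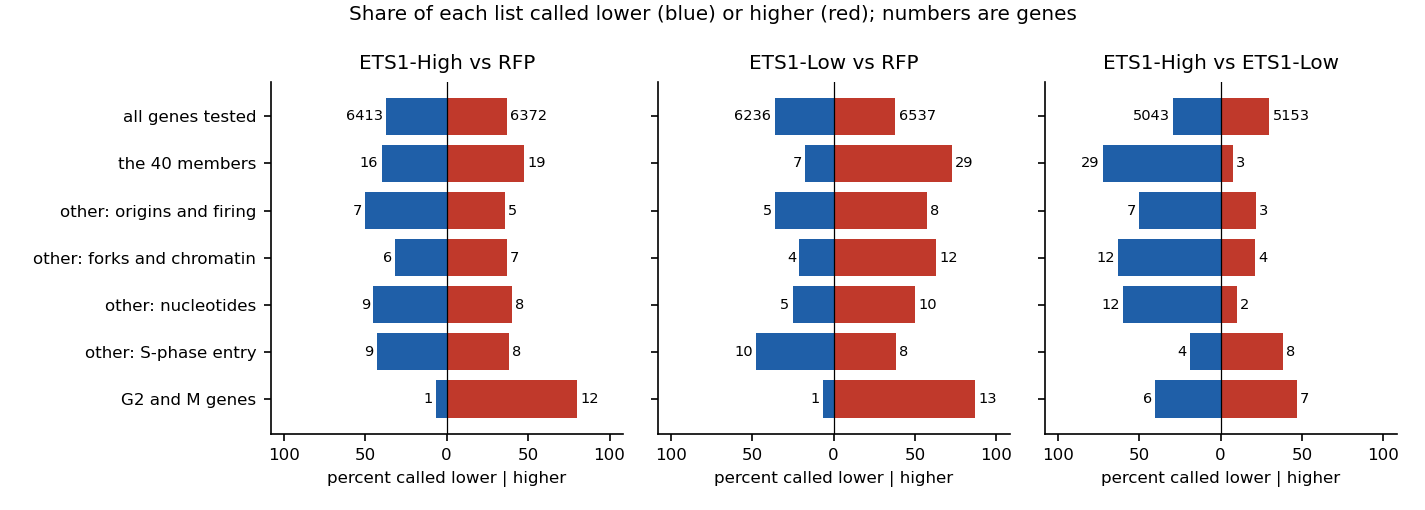
Bars give the percent of each list called lower (blue, to the left) or higher (red, to the right) in each comparison, with the number of genes at the end of each bar, for all 17235 genes tested, the 40 replication genes and the further lists. The 40 genes lean to higher in ETS1-Low (29 against 7) and to lower from ETS1-Low to ETS1-High (29 against 3), and the genes of G2 and mitosis lean to higher against RFP in both groups.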

How the data were processed

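Both deposited tables cover genes by libraries. One holds expected counts and the other FPKM, each made with RSEM per the file headers. The submitters' processing notes name cutadapt 4.4, STAR 2.7.3, featureCounts, Subread 2.0.3, limma 3.38.3 and GRCh38 (hg38), with no roles, and the RSEM version, the annotation and the use of strand are not given in the sources used here. Expected counts divide reads shared between genes, and were rounded to whole numbers. Columns were matched to samples by name, and groups come from the sample titles.

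Counts of all 9 libraries entered 1 edgeR 4.0.16 quasi-likelihood fit (R 4.3.3, TMM, filterByExpr by group, robust, group only, 6 residual degrees of freedom), which left 17235 genes. P-values were adjusted by Benjamini-Hochberg over all of them. CPM use TMM library sizes. The SE is the log2 fold change over the root of F. Replicates differed beyond sampling noise (chi-square per gene 2.66 to 5.19). The code was tested on simulated data. Alternatives used DESeq2 1.42.0, limma 3.58.1, other factors and filters, FPKM, a replicate block and single libraries left out.

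The 40 genes and all lists were chosen with earlier results of these data known. Library values are given for the 3 largest rises and falls per comparison among called genes with no overlap between groups, and for the least changed gene. From each further list the 2 largest rises and falls in ETS1-High against RFP are named, apart from 1 that is not reported here. LIG1, E2F2 and the ratios were added after their values were seen. Positions and local medians use GENCODE v44, which need not be the annotation behind the counts.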

Additional observations from a re-analysis of the deposited data

How the results depend on the processing

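Of the 120 log2 fold changes of the 40 genes over 3 comparisons, 97 kept their call and sign under every setting that used counts and 79 under all 21 tested settings. FPKM set the medians of all genes tested to -0.08, -0.07 and 0.01 in ETS1-High against RFP, ETS1-Low against RFP and ETS1-High against ETS1-Low. Upper-quartile factors set them to -0.07, -0.04 and -0.01. The FPKM fit centred on the median gene was chosen after seeing the data. The cause of each change below was not tested. Counts this deep (319 or more per gene and library) leave the spread between libraries, of which there are 3 a group, as the limit.
The median of the 40 genes in ETS1-High against RFP was -0.015 (upper quartile), 0.026 (at least 10 counts), -0.097 or -0.098 (FPKM), -0.049 (centred FPKM) and -0.023 (less the local median). In ETS1-Low it was 0.24 (upper quartile), 0.11 (FPKM), 0.18 (centred) and 0.17 (local), and between ETS1-High and ETS1-Low -0.099 or -0.10 (FPKM) and -0.17 (local). At a minimum of 1.5-fold the members called were 7 (6 higher, 1 lower), 8 (8 and 0) and 0, and the other pathway genes 12 and 2, 11 and 3, and 2 and 1. Other pathway genes higher in ETS1-Low numbered 33 on unfiltered FPKM.
With single libraries left out, members called ranged from 32 to 37, 33 to 36 and 30 to 32 in the 3 comparisons, those higher from 17 to 20, 28 to 29 and 3 to 3, and those lower from 15 to 17, 4 to 7 and 27 to 29. Their medians ranged from 0.04 to 0.06, 0.26 to 0.30 and -0.15 to -0.13, and other genes from 36 to 40, 49 to 52 and 19 to 25 higher and 31 to 35, 24 to 25 and 38 to 41 lower.
Signs turned as follows. In ETS1-High against RFP, POLE was -0.0091 (DESeq2 factors), -0.058 (upper quartile), -0.0054 (DESeq2), -0.017 (at least 10 counts), -0.12 or -0.13 (FPKM) and -0.077 (centred), and from -0.017 to 0.027 with single libraries left out. MCM2 was -0.031 (upper quartile), -0.069 or -0.070 (FPKM) and -0.022 (centred), POLE2 -0.13 or -0.14 and -0.080 (centred), PCNA -0.044 and E2F2 -0.011 (FPKM). Less the local median, MCM4 was 0.13, MCM6 -0.26, POLA2 -0.16, PRIM2 0.10, POLD3 -0.22, FEN1 -0.0013 and RRM1 -0.072. In ETS1-Low on FPKM with a pseudocount of 1 or 0.1, MCM3 was -0.088 or -0.089, MCM7 -0.039, GINS2 -0.087 or -0.093, GINS3 -0.048 or -0.051, POLE -0.099 or -0.10, RFC2 -0.058 or -0.059 and RFC4 -0.085 or -0.086. Centred, MCM3 was -0.016, GINS2 -0.015, POLE -0.027 and RFC4 -0.012, and less the local median MCM6 was -0.0044, POLA2 -0.11, PRIM2 0.26 and POLD3 -0.13. Between ETS1-High and ETS1-Low, RPA2 was 0.0040 (DESeq2 factors), 0.0049 (DESeq2), 0.017 (FPKM) and from -0.035 to 0.042 with single libraries left out, CCNE1 from -0.064 to 0.019, and MCM6 -0.24 less the local median.
Same-numbered libraries did not deviate together (correlations -0.03 to 0.03), which does not show whether they were grown or prepared together. With a replicate block 35, 36 and 32 members were called, with medians of 0.05, 0.29 and -0.14, and the other genes higher in ETS1-Low were 52 in place of 51.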
